A study of Mus musculus with 6 samples.

Results

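The 9 genes of the tumour necrosis factor (TNF) receptor family followed here in activated mouse CD8+ T cells were Tnfrsf4, Tnfrsf8, Tnfrsf9, Tnfrsf18, Tnfrsf1a, Tnfrsf1b, Tnfrsf14, Tnfrsf25 and Cd27. They were chosen by symbol as receptors that costimulate T cells or bind TNF and its relatives, and all 9 were found among the 25638 genes of the deposited table. The T cells were OT-I cells, which carry a transgenic T cell receptor for an ovalbumin peptide, and all groups received that peptide (OVA257-264) for 48 hours. A first group was co-cultured with TANs, sorted as CD11b+ Ly6G+ cells with low Ly6C, another with TAMos, sorted as CD11b+ Ly6G- cells with high Ly6C, and the third with vehicle, in 2 libraries each. Both myeloid populations came from the spleen, not the tumour, of mice bearing LLC tumours (Lewis lung carcinoma). The labels give the T cell genotype as WT in all 3 groups, and the T cells were purified again before RNA was taken. Mouse age is not stated in the labels, nor whether a group's libraries are separate cultures, so p-values measure the spread between these libraries, which may be technical.

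Receptors of this family are surface proteins that have no enzyme activity of their own and pass their signal through adaptor proteins. Most of the 9 recruit TRAF adaptors and activate NF-kB, which favours survival, division and cytokine production of T cells, whereas TNFR1 (Tnfrsf1a) and DR3 (Tnfrsf25) also carry a cytoplasmic death domain. CD27, HVEM (Tnfrsf14) and DR3 are found on resting T cells, while OX40 (Tnfrsf4), 4-1BB (Tnfrsf9), GITR (Tnfrsf18) and CD30 (Tnfrsf8) are known for their rise after antigen encounter, and several of these are also high on regulatory T cells.

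Values are FPKM, read counts scaled to gene length and library depth, so that levels of different genes can be set side by side per length. Depth, inferred from the spacing of low FPKM values, was 45.0 and 44.9 M reads with TAN, 21.9 and 41.6 M with TAMo, and 44.9 and 45.4 M with vehicle. With exon lengths from the annotation, the lowest receptor value, that of Tnfrsf8 in the TAMo libraries, stood for about 60.2 and 105 reads. Defining markers of CD8 T cells were high throughout, with all 10 above 1 FPKM and a summed level between 2240 and 2390 FPKM. Single markers in that sum moved in both directions with TAMo. Cd2 measured 48.2 and 55.3 FPKM with TAMo, against 189 and 203 with vehicle, and Cd8a 94.5 and 95.1, against 145 and 152. Cd5 measured 303 and 302 FPKM with TAMo, against 93.8 and 92.3 with vehicle. None of 12 neutrophil markers reached 1 FPKM in any library, with summed levels up to 0.140 with TAN, 0.129 with TAMo and 0.0615 with vehicle, and S100a8 and S100a9 were listed at 0 in all 6. Of 10 monocyte and macrophage markers 2 did, Cd14 and Cd68, and the list summed to 1.99 to 2.98 FPKM with TAN, 6.90 to 10.6 with TAMo and 2.49 to 3.22 with vehicle, while Csf1r and Itgam stayed at or under 0.044 FPKM. The 6 B cell markers summed to 7.14 to 9.55 FPKM over all libraries, and the 4 NK cell markers to at most 0.0543. The 8 dendritic cell and MHC class II markers summed to 60.5 to 61.6 with TAN, 51.4 to 55.6 with TAMo and 77.7 to 78.7 with vehicle. Single genes of this last list went both ways with TAMo. Cd74, H2-Ab1 and H2-Aa were called lower than with vehicle, Cd74 at 14.85 and 14.06 FPKM against 34.8 and 36.03. Zbtb46 was called higher, at 5.90 and 5.09 FPKM with TAMo against 1.93 and 1.51 with vehicle. Xcr1, under 1 FPKM and not tested, measured 0.687 and 0.534 with TAMo, against 0.0451 and 0.0199 with vehicle. The mitochondrial share of summed FPKM was 8.07% and 8.21% with TAN, 1.20% and 1.32% with TAMo, and 8.15% and 8.34% with vehicle. The part of these differences in the receptor values was not tested, beyond the rescalings described with the processing.

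Of the receptor genes, 7 lie on mouse chromosome 4 and the other 2, Tnfrsf1a and Cd27, on chromosome 6. Among them, 2 pairs are close neighbours in the annotation (GENCODE on GRCm38, the assembly also called mm10). Tnfrsf4 (156013843 to 156016612, plus strand) ends 9.6 kb before Tnfrsf18 (156026164 to 156028895, plus strand). Tnfrsf8 (145267137 to 145315164, minus strand) lies 20.3 kb from Tnfrsf1b (145213463 to 145246870, minus strand). The remaining chromosome 4 genes are Tnfrsf9 (150914562 to 150946102), Tnfrsf25 (152115934 to 152120119) and Tnfrsf14 (154921933 to 154928563). On chromosome 6, Cd27 (125232622 to 125237010) and Tnfrsf1a (125349362 to 125362484) are 112 kb apart.

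The start regions of both neighbouring pairs and of Tnfrsf9, the most abundant member, are shown because the members of each pair moved in opposite directions in the TAMo co-culture. Each window, from RefSeq on GRCm38.p6, runs from 250 bases before to 50 bases after an annotated start, and RefSeq lists 11 such windows for the 9 genes. Capitals mark matches to an NF-kB type motif (GGGNNNNNCC, or GGNNNNNCCC on the other strand), an AP-1 motif (TGANTCA) or a STAT motif (TTCNNNGAA), the last 2 of which read the same on both strands; matches of the first that begin 1 base apart share a run of capitals.
Tnfrsf8, chr4:145315115-145315414, minus strand: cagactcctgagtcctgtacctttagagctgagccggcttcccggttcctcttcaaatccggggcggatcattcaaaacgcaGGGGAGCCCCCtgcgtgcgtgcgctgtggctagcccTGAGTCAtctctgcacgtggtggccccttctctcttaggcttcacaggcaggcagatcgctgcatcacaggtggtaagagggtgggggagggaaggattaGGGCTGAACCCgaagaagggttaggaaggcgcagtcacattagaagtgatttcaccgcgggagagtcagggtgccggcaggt
Tnfrsf1b, chr4:145246821-145247120, minus strand: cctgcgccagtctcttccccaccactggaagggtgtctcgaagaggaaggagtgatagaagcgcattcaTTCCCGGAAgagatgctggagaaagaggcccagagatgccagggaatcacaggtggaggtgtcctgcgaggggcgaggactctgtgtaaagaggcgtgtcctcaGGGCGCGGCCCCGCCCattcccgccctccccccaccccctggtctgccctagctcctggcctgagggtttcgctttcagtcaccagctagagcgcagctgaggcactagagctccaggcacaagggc
Tnfrsf4, chr4:156013445-156013744, plus strand: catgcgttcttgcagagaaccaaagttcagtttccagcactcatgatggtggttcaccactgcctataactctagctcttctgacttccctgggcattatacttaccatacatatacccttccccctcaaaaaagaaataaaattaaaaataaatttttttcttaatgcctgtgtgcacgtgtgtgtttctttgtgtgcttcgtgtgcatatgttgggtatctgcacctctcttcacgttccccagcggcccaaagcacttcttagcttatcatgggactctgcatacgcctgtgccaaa
Tnfrsf18, chr4:156026072-156026371, plus strand: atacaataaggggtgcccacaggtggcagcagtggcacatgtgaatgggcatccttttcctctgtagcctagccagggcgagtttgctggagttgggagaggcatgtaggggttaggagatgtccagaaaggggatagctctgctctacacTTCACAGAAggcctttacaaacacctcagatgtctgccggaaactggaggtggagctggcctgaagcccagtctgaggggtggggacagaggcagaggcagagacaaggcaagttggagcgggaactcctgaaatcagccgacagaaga
Tnfrsf9, chr4:150927749-150928048, plus strand: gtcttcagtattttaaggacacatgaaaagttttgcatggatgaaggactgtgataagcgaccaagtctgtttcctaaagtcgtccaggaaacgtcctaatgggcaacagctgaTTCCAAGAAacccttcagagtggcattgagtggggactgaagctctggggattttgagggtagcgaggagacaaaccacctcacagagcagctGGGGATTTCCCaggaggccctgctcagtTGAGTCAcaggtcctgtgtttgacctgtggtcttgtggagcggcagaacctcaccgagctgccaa
The Tnfrsf8 window held NF-kB matches and an AP-1 match that began 132 bases before the start, where the Tnfrsf1b window had a STAT match and overlapping NF-kB matches and no AP-1 match. The Tnfrsf4 window held none of the 3 motifs and the Tnfrsf18 window a STAT match alone. The Tnfrsf9 window shown held all 3, and the other annotated Tnfrsf9 window none. Over the 11 windows of the 9 genes, 8 held the NF-kB letters, 2 the AP-1 letters and 5 the STAT letters, beside 50.8%, 7.81% and 8.30% of all 32851 windows of this length. A match of letters is not a binding site, and binding was not measured.

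4-1BB was the most abundant of the receptor transcripts in all 6 libraries, and OX40 and GITR followed it in the TAN and vehicle libraries. The summed level of the 9 genes was 1370 and 1364 FPKM with TAN, 2389 and 2335 FPKM with TAMo, and 1414 and 1384 FPKM with vehicle. With TAN the order ran Tnfrsf9, Tnfrsf4, Tnfrsf18, Cd27, Tnfrsf1b, Tnfrsf1a, Tnfrsf8, Tnfrsf14 and Tnfrsf25. With TAMo it ran Tnfrsf9, Tnfrsf18, Cd27, Tnfrsf1b, Tnfrsf4, Tnfrsf14, Tnfrsf1a, Tnfrsf25 and Tnfrsf8. With vehicle it ran Tnfrsf9, Tnfrsf4, Tnfrsf18, Cd27, Tnfrsf1b, Tnfrsf1a, Tnfrsf14, Tnfrsf8 and Tnfrsf25. The 2 libraries of neighbours in these orders did not overlap, except those of Cd27 and Tnfrsf1b with TAMo and of Tnfrsf8 and Tnfrsf25 with vehicle. Tnfrsf9 alone made up 36.9% and 37.2% of the sum with TAN, 52.0% and 52.3% with TAMo, and 35.3% and 35.9% with vehicle. OX40 supplied 27.3% and 27.8% of the sum with TAN, 7.19% and 7.32% with TAMo, and 29.9% and 29.6% with vehicle.

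**Figure D1:**
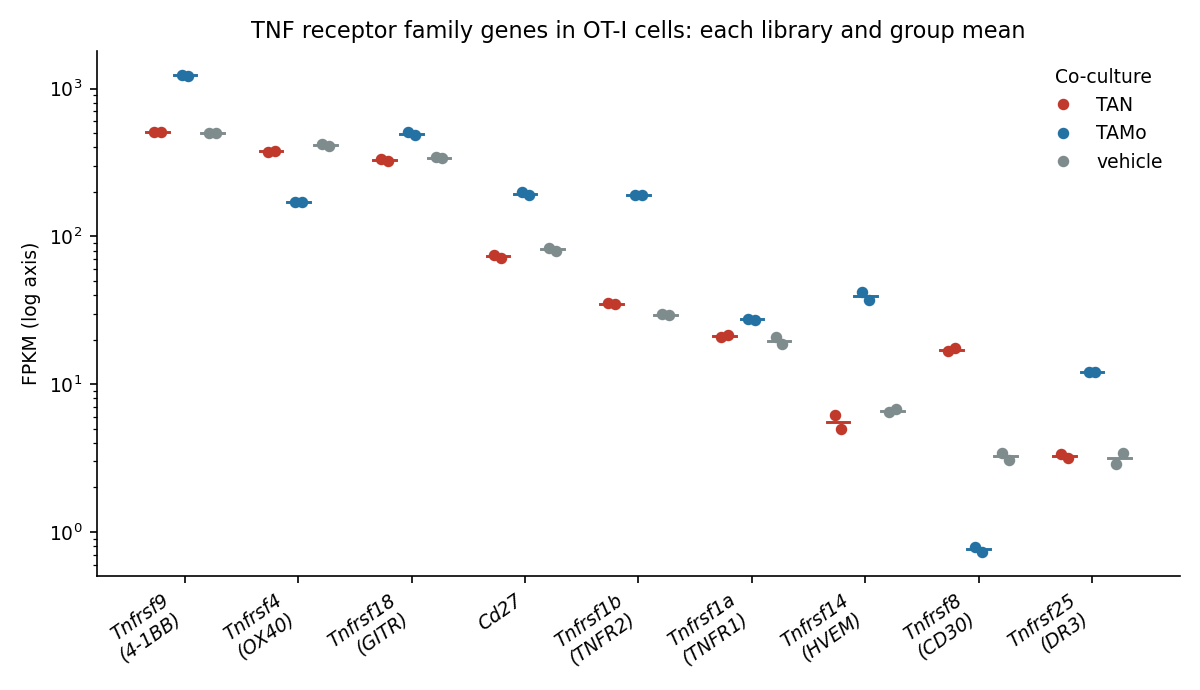
FPKM of the 9 receptor genes on a log axis, ordered by their level with vehicle; each point is 1 library, each short line the mean of the 2 libraries of a group, and colours mark TAN, TAMo and vehicle. Tnfrsf8 stands highest with TAN, Tnfrsf4 lowest with TAMo, and the other 7 genes are highest with TAMo.

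Co-culture with TANs raised CD30 far more than any other of these receptors, raised TNFR2 slightly and lowered OX40 and CD27 slightly. With the limma test across 10727 genes that reached 1 FPKM in at least 2 libraries, which include all 9, 2 of the 9 were higher and 2 lower at an adjusted p under 0.05, a share to be read beside the 20.3% of all tested genes called in either direction (9.37% higher and 11.0% lower). Without TAN replicate 1, TAN replicate 2 or vehicle replicate 1 the count was 2, namely the 2 that rose, as it was with no variance trend. The median log2 change of the 9 was 0.023, beside -0.0050 over all genes tested. By size, 1 of the 9 passed with a log2 change of 1 or more in either direction, as did 0.224% of all genes.

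Tnfrsf8 encodes CD30, an activation receptor whose ligand is CD30 ligand. It measured 16.7 and 17.4 FPKM with TAN, against 3.41 and 3.07 FPKM with vehicle. Both TAN libraries lay above both vehicle libraries. The log2 change was 2.09 ± 0.073 (SE; adjusted p = 2.23e-05), the second largest rise among the 10727 genes. It kept its call under every alternative tried, with a log2 change between 2.03 and 2.36. Tnfrsf1b, which encodes TNFR2, the costimulatory receptor for TNF, measured 35.1 and 34.6 FPKM with TAN, against 29.8 and 29.3 FPKM with vehicle. The libraries did not overlap, and the rise of 0.23 ± 0.029 (adjusted p = 0.00315) held under every alternative, with adjusted p up to 0.0308. Regulatory T cells are known to carry TNFR2. The 5 genes of the CD4 and regulatory T cell list summed to 25.9 to 26.5 FPKM with TAN, 46.5 to 48.3 with TAMo and 19.4 to 19.9 with vehicle. Of these, Cd4 and Foxp3 stayed at or under 0.157 FPKM in all libraries, and Cd40lg, Zbtb7b and Ikzf2 were the 3 above 1 FPKM. Ikzf2 was called higher with TAN (log2 change 0.53) and with TAMo (0.52), as was Cd40lg (0.77 and 0.42). Zbtb7b was called higher with TAMo (1.64) but not with TAN (0.018). The part of such cells in the TNFR2 values was not tested.

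Tnfrsf4, the gene of OX40, measured 374 and 379 FPKM with TAN, against 422 and 409 FPKM with vehicle, and its libraries did not overlap between the groups. It fell by 0.14 on the log2 scale (SE 0.026, adjusted p = 0.0126). This call was lost without TAN replicate 1 (adjusted p = 0.0907), TAN replicate 2 (0.0697) or vehicle replicate 1 (0.0908) and with no variance trend (0.0621). Cd27, a receptor of naive and memory T cells that binds CD70, measured 75.0 and 71.4 FPKM with TAN, against 84.0 and 79.5 FPKM with vehicle. Its fall of 0.16 (SE 0.042, adjusted p = 0.0396) was lost without any 1 of the 4 TAN and vehicle libraries, with adjusted p between 0.0705 and 0.201, with no filter on low values (0.109), with quantile normalisation (0.0761) and with no variance trend (0.0976). The falls of OX40 and CD27 were thus near the threshold in these libraries, unlike the rise of CD30.

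The other 5 receptors did not pass the test for TAN against vehicle. Tnfrsf9 measured 505 and 508 FPKM with TAN and 499.7 and 497 FPKM with vehicle, a log2 change of 0.023 ± 0.024. Tnfrsf18 measured 333 and 324 FPKM with TAN and 345 and 337 FPKM with vehicle, a log2 change of -0.053 ± 0.030. For these 2 abundant receptors the groups lay within a few percent of each other. Tnfrsf1a, at 20.9 and 21.6 FPKM with TAN and 20.7 and 18.6 FPKM with vehicle, had a log2 change of 0.11 ± 0.054. Tnfrsf25, at 3.39 and 3.15 FPKM with TAN and 2.87 and 3.43 FPKM with vehicle, had one of 0.042 ± 0.082, and its groups overlapped. Tnfrsf14, at 6.13 and 4.96 FPKM with TAN and 6.48 and 6.76 FPKM with vehicle, had the largest of these differences, -0.22 ± 0.096 (adjusted p = 0.146).

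Co-culture with TAMos changed all 9 receptors, lowering OX40 and CD30 and raising the others, most of all TNFR2 and HVEM. Of the 9, 7 were higher and 2 lower than with vehicle, beside 86.5% of all tested genes called in either direction, 45.7% higher and 40.7% lower. That all 9 passed is therefore close to the share of genes in general. By size, 7 of the 9 passed with a log2 change of 1 or more in either direction, as did 29.3% of all genes, and the median log2 change was 1.24, beside 0.057 over all genes. These calls and directions held under all 16 alternatives, including the rescaling of libraries to one sum, which moved the median of all genes to 0.24.

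The 2 members that fell are both activation receptors. Tnfrsf4 measured 171.7 and 171 FPKM with TAMo, against 422 and 409 FPKM with vehicle, and fell by 1.27 on the log2 scale (SE 0.026, adjusted p = 7.55e-09). The groups lay far apart, with a mean 2.43 times lower with TAMo. Tnfrsf8 measured 0.795 and 0.728 FPKM with TAMo, against 3.41 and 3.07 FPKM with vehicle, and fell by 1.27 (SE 0.073, adjusted p = 1.63e-06) on the log2(FPKM + 1) scale. Since the added 1 holds down the change of a gene at this level, the ratio of its means, 4.26 times lower with TAMo, is larger than that figure implies, and with a pseudocount of 0.1 its fall was 1.95.

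Among activation receptors that rose, Tnfrsf9, the gene of 4-1BB, measured 1242 and 1221 FPKM with TAMo, against 499.7 and 497 FPKM with vehicle. The rise was 1.30 ± 0.024 (adjusted p = 4.70e-09), and it ranked 45 and 46 by FPKM among all genes in the TAMo libraries. Tnfrsf18, the gene of GITR, measured 504 and 486 FPKM with TAMo, against 345 and 337 FPKM with vehicle. It rose less, by 0.54 ± 0.030 (adjusted p = 1.33e-06). Both genes had no overlap between the groups.

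Receptors of resting and memory T cells rose with TAMo as well. Cd27 measured 199 and 190 FPKM with TAMo, against 84.0 and 79.5 FPKM with vehicle, a rise of 1.24 ± 0.042 (adjusted p = 8.04e-08). Tnfrsf14, the gene of HVEM, which binds LIGHT as well as the inhibitory receptor BTLA, measured 41.8 and 37.1 FPKM with TAMo, against 6.48 and 6.76 FPKM with vehicle. Its rise of 2.40 ± 0.096 (adjusted p = 1.99e-07) was the second largest of the 9. Tnfrsf25, the gene of DR3, the receptor for TL1A, measured 12.2 and 12.0 FPKM with TAMo, against 2.87 and 3.43 FPKM with vehicle, a rise of 1.66 ± 0.082 (adjusted p = 6.59e-07).

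The TNF receptors proper moved by unequal amounts. Tnfrsf1b measured 189 and 190.3 FPKM with TAMo, against 29.8 and 29.3 FPKM with vehicle, a 6.43-fold difference of means and a log2 rise of 2.64 ± 0.029 (adjusted p = 6.82e-10). It ranked 148 from the top among the changes of all 10727 genes. Tnfrsf1a, the gene of TNFR1, measured 27.5 and 27.3 FPKM with TAMo, against 20.7 and 18.6 FPKM with vehicle, and rose by 0.46 ± 0.054 (adjusted p = 0.000104). The ratio of Tnfrsf1b to Tnfrsf1a was 1.68 and 1.60 with TAN, 6.88 and 6.98 with TAMo, and 1.44 and 1.58 with vehicle. The TAMo libraries stood far above the rest, and the TAN libraries lay slightly above those of vehicle. Because RNA is measured relative to the whole library, fewer cells of a type and less RNA per cell cannot be told apart in these bulk samples.

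**Figure D2:**
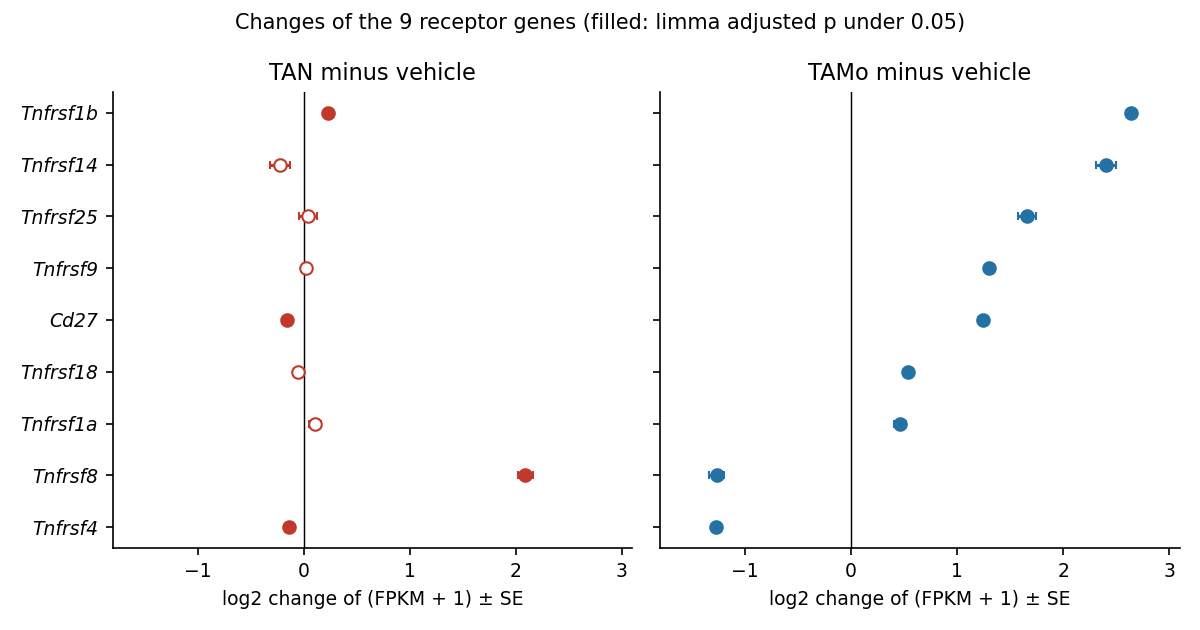
Log2 change of (FPKM + 1) with its standard error for the 9 receptor genes, TAN minus vehicle on the left and TAMo minus vehicle on the right; filled points passed the limma test at an adjusted p under 0.05, and error bars smaller than the points are hidden. Tnfrsf8 lies at 2.09 with TAN and -1.27 with TAMo, and both panels share the same vehicle libraries.

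Set directly against each other, the co-cultures differed in all 9 receptors, with 2 higher and 7 lower with TAN than with TAMo, beside 86.6% of all tested genes called (40.6% higher and 46.0% lower). By size, 7 of the 9 differed by 1 or more on the log2 scale, as did 29.2% of all genes. Tnfrsf8 differed most, with a mean 22.4-fold higher with TAN and a log2 difference of 3.36 ± 0.073 (adjusted p = 9.87e-09). Tnfrsf4 was 2.20-fold higher with TAN (log2 difference 1.13 ± 0.026, adjusted p = 1.31e-08). Tnfrsf14 and Tnfrsf1b were lower with TAN by the widest margins, with log2 differences of -2.63 ± 0.096 and -2.41 ± 0.029. The smallest difference was that of Tnfrsf1a, -0.35 ± 0.054 (adjusted p = 0.000499). All 9 calls held under the 16 alternatives.

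Within both neighbouring pairs on chromosome 4 the members went different ways with TAMo, as given above for each gene. The ratio of Tnfrsf18 to Tnfrsf4 was 0.890 and 0.854 with TAN, 2.94 and 2.84 with TAMo, and 0.817 and 0.825 with vehicle, so that GITR exceeded OX40 in the TAMo libraries and OX40 exceeded GITR in the other 4. The ratio of Tnfrsf1b to Tnfrsf8 was 2.11 and 1.98 with TAN, 238 and 261 with TAMo, and 8.74 and 9.54 with vehicle, with no overlap between any of the groups. Of 17 tested genes within 50 kb of a receptor, 3 were higher and 2 lower with TAN than with vehicle, and 6 were higher and 8 lower with TAMo than with vehicle. Of all tested genes, 20.3% were called with TAN and 86.5% with TAMo. Tuba3a, 1 of the 6 that were higher, passed the filter on low values only through the TAMo libraries.

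Around Tnfrsf4, C1qtnf12 was higher with TAN (0.35 ± 0.050, adjusted p = 0.00534) and lower with TAMo (-1.08 ± 0.050), Sdf4, whose end lies 233 bases from Tnfrsf4, was lower with TAMo (-0.36 ± 0.029), and B3galt6 was higher with TAMo (0.46 ± 0.067). Vps13d, beside Tnfrsf1b, was higher with TAMo (1.29 ± 0.064). Park7, which lies 125 bases from the GENCODE span of Tnfrsf9 on the opposite strand, was higher with TAN (0.26 ± 0.038) and lower with TAMo (-0.53 ± 0.038). The Tnfrsf9 window shown above (150927749 to 150928048) lies inside that span and not at its edge beside Park7. Errfi1, further away, was higher with TAMo (1.39 ± 0.064). Tapbpl, a gene of antigen presentation that lies 762 bases from Cd27, resembled it, with -0.22 ± 0.032 for TAN and 1.60 ± 0.032 for TAMo against vehicle, while Ncapd2, a condensin gene near Cd27, was lower with TAMo (-3.31 ± 0.029). Espn, which lies 212 bases from Tnfrsf25 on the opposite strand, was higher with TAMo (2.92 ± 0.074). Pank4, near Tnfrsf14, was lower with TAMo (-1.75 ± 0.044) and with TAN (-0.16 ± 0.044), the TAN call being lost without any 1 of the TAN and vehicle libraries (adjusted p between 0.0936 and 0.21), with no filter on low values (0.082), with quantile normalisation (0.0853), with no variance trend (0.0732) and with the replicate block (0.0565). Of the remaining tested neighbours, Gm37090, Mrpl51 and Camta1 were lower and Tuba3a higher with TAMo, and Plekhg5 and Fam213b did not pass in either comparison; with TAMo the calls of Mrpl51 and Camta1 were lost without some single libraries (adjusted p up to 0.168 and 0.152). Both were also lost when low values were not filtered (0.0706 and 0.0609) and on rescaling to one sum (0.833 and 0.131), mitochondrial genes left out or not (0.159 and 0.0594 without them).

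Whether reads were counted by strand is not stated, and the annotated spans of some receptors, introns included, overlap a gene on the other strand. Overlap of exons was not computed, so whether such genes share reads is not known. Camta1 overlaps Tnfrsf9 and averaged 1.39 FPKM with TAN, 1.02 with TAMo and 1.48 with vehicle, far under Tnfrsf9. Vamp1 overlaps Cd27 along its whole length and averaged 6.34 FPKM with TAN, 5.13 with TAMo and 5.07 with vehicle, and its higher level with TAN (0.27 ± 0.061) lost its call without any 1 of the TAN and vehicle libraries (adjusted p up to 0.123) or when low values were not filtered (0.0585). Gm16008, annotated antisense to Tnfrsf18, was not analysed here.

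**Figure D3:**
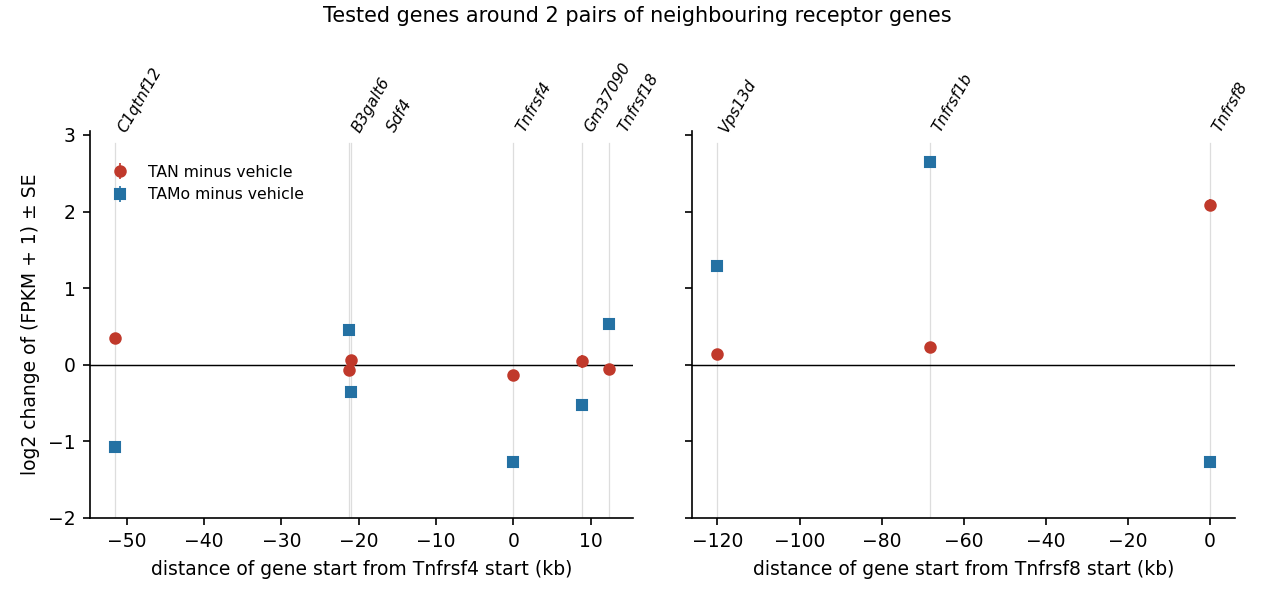
Log2 change of (FPKM + 1) with its standard error for tested genes around the pair Tnfrsf4 and Tnfrsf18 (left) and the pair Tnfrsf1b and Tnfrsf8 (right), against the distance of each gene's start from that of Tnfrsf4 or Tnfrsf8 in kb. Red circles are TAN minus vehicle and blue squares TAMo minus vehicle; with TAMo, Tnfrsf18 lies above 0 and Tnfrsf4 below it, and Tnfrsf1b above and Tnfrsf8 below.

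Likeness of pattern was measured as the distance, over the 6 libraries, between log2(FPKM + 1) profiles centred on their own means, and is given as a description. Tnfrsf9 and Cd27 were the closest pair of receptors (distance 0.200), followed by Tnfrsf18 and Tnfrsf1a (0.263), while Tnfrsf8 lay between 2.57 (from Tnfrsf4) and 6.04 (from Tnfrsf14) from the other members. Among all tested genes the 2 nearest to Tnfrsf8 were Il17a (0.449), which averaged 27 FPKM with TAN, 2.72 with TAMo and 6.58 with vehicle, and Gm10800 (0.596). The nearest to Tnfrsf4 were Srrt (0.0228) and Sssca1 (0.0547), to Tnfrsf9 Csnk1a1 (0.0515) and Jak1 (0.0527), and to Cd27 Tap2 (0.0555) and Zfp672 (0.0731). Those nearest to Tnfrsf1b were Pitpnc1 (0.0691) and Rbl2 (0.0795), to Tnfrsf14 Nme4 (0.179) and Tbc1d2 (0.187), and to Tnfrsf25 Dctn4 (0.0595) and Arl13b (0.0905). For Tnfrsf18 they were Mnt (0.0302) and Zfp26 (0.0390), and for Tnfrsf1a Samd8 (0.0599) and Rragc (0.0635). The nearest tested gene thus lay further from Tnfrsf8 than from any other member. This distance grows with the size of a change, and few genes changed as much with TAN as Tnfrsf8 did. Of all tested genes, 0.224% passed with a log2 change of 1 or more in size for TAN against vehicle.

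The ligand genes of OX40 and CD30 were higher with TAMo than with vehicle, and both receptor genes were lower. Tnfsf4, which encodes OX40 ligand, measured 262 and 255 FPKM with TAMo, against 1.09 and 0.972 FPKM with vehicle, a ratio of means of 251. Tnfsf8, which encodes CD30 ligand, measured 6.34 and 6.16 FPKM with TAN, 58.6 and 58.8 with TAMo, and 9.99 and 9.54 with vehicle. It fell with TAN by 0.57 (SE 0.046, adjusted p = 0.000657) and rose with TAMo by 2.47 ± 0.046, in both cases opposite to Tnfrsf8. Of 12 ligand and partner genes listed, 10 were tested: 1 was higher and 6 lower with TAN than with vehicle, and 6 were higher and 4 lower with TAMo than with vehicle. Of all tested genes, 20.3% were called with TAN and 86.5% with TAMo against vehicle. Tnfsf4 and Cd70 passed the filter on low values only through the TAMo libraries. Tnfsf18 and Tnfsf15, the ligand genes of GITR and DR3, stayed at or under 0.0574 FPKM.

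Lta, whose product lymphotoxin alpha also binds both TNF receptors, was the 1 ligand gene higher with TAN. It measured 159 and 156 FPKM with TAN, 42.8 and 45.9 with TAMo, and 137 and 132 with vehicle, a log2 change of 0.23 ± 0.040 with TAN and -1.58 ± 0.040 with TAMo. Tnf measured 30.3 and 29.4 FPKM with TAN, 19.8 and 18.8 with TAMo, and 34.9 and 32.9 with vehicle, with changes of -0.18 ± 0.047 and -0.78 ± 0.047. The HVEM partner Cd160 fell in both co-cultures, by 0.59 with TAN and by 1.06 with TAMo, whereas Btla, at 24.5 and 25.4 FPKM with TAN, 32.5 and 33.6 with TAMo and 28.6 and 29.8 with vehicle, was lower with TAN and higher with TAMo. Tnfsf14, the gene of the HVEM ligand LIGHT, changed by -0.16 ± 0.044 with TAN and 0.38 ± 0.044 with TAMo, and Ltb, which encodes lymphotoxin beta, by -0.22 ± 0.058 and -0.17 ± 0.058. For Tnfsf9, the 4-1BB ligand gene, the values were -0.10 ± 0.11, which did not pass, and 0.28 ± 0.11, and for the CD27 ligand gene Cd70 -0.43 ± 0.19, which did not pass, and 0.93 ± 0.19.

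Several of the ligand calls depended on single libraries or on the filter and variance settings. For TAN against vehicle, 4 of the 7 were left with no filter on low values (Tnf 0.0856, Ltb 0.115 and Tnfsf14 0.054 were lost), 5 with no variance trend (Tnf 0.0693 and Ltb 0.079) and 5 with quantile normalisation (Tnf 0.0584 and Tnfsf14 0.0512). The calls of Lta, Btla, Tnf, Ltb and Tnfsf14 were lost without 1 library of the 2 groups, among them TAN replicate 2 for each (adjusted p = 0.0587, 0.0509, 0.178, 0.147 and 0.16), and 2 to 4 of the 7 calls were left without any 1 of these 4 libraries. Without vehicle replicate 2 the calls were also lost for Lta (0.0726), Btla (0.0776), Tnf (0.0701), Ltb (0.179) and Tnfsf14 (0.105). Without TAN replicate 1 the same held for Lta (0.0702), Btla (0.0791), Tnf (0.111) and Tnfsf14 (0.147), and without vehicle replicate 1 for Tnf (0.191), Ltb (0.0961) and Tnfsf14 (0.182). That of Tnfsf14 was also lost without TAMo replicate 1 (0.057) or TAMo replicate 2 (0.0569), in the fit of the 2 groups alone (0.0633) and in the fit with the replicate number as a block (0.0596). Tnfsf4 passed with TAN without TAN replicate 2 (0.0157). For TAMo against vehicle, Tnfsf9 was lost without TAMo replicate 1 (0.152), TAMo replicate 2 (0.0579) or vehicle replicate 2 (0.236), with a pseudocount of 0.1 (0.0508), with no filter (0.118), with quantile normalisation (0.0595) and with the replicate block (0.0597). Ltb was lost without TAMo replicate 2 (0.0872) or vehicle replicate 2 (0.15), with no filter (0.0791), with no variance trend (0.0562) and with rescaling to one sum without mitochondrial genes (0.27). Ltb changed sign, to 0.031, when libraries were rescaled to one sum. The changes of Tnfsf8 and Cd160 were not lost in this way in either comparison.

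**Figure D4:**
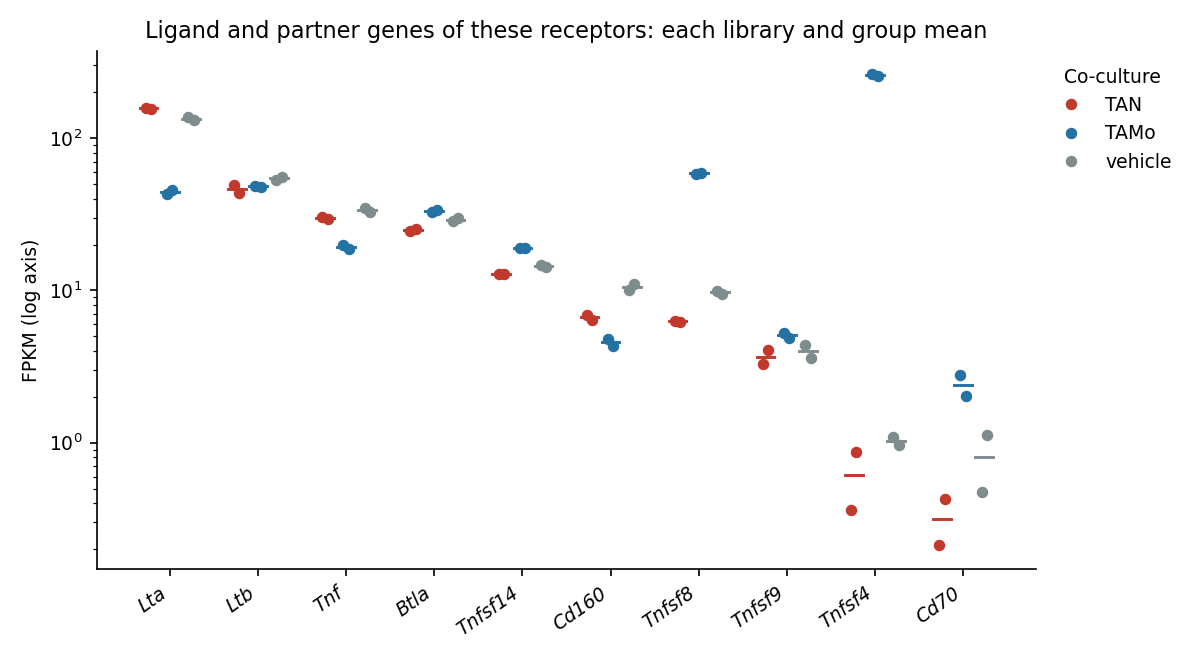
FPKM, on a log axis, of the 10 tested ligand and partner genes of the receptors; each point is 1 library, each short line the mean of 2, and colours mark TAN, TAMo and vehicle. Tnfsf4 at 262 and 255 FPKM and Tnfsf8 at 58.6 and 58.8 FPKM stand highest with TAMo, and Lta is highest with TAN.

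The remaining TNF receptor genes were mostly low, and 12 of 19 were tested. With TAMo 8 were higher and 3 lower than with vehicle, and with TAN 1 was higher and 2 lower. Over all tested genes, 86.5% were called with TAMo and 20.3% with TAN. Fas, the death receptor, measured 154 and 155 FPKM with TAMo, against 10.4 and 8.40 FPKM with vehicle, and the TRAIL receptor gene Tnfrsf10b 41.1 and 41.6 FPKM with TAMo, against 4.43 and 4.90 FPKM with vehicle. Tnfrsf26, at 24.5 and 24.7 FPKM with TAMo against 0.934 and 1.43 FPKM with vehicle, and the decoy TRAIL receptor genes Tnfrsf22 and Tnfrsf23, with log2 rises of 0.71 ± 0.099 and 2.46 ± 0.13, are close relatives that may share reads. Cd40 rose by 0.38 ± 0.074 with TAMo, Tnfrsf21 by 1.07 ± 0.098 and Eda2r by 1.80 ± 0.10, and the last 2, like Tnfrsf23, passed the filter only through the TAMo libraries.

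Tnfrsf13b, the gene of TACI, a receptor for BAFF and APRIL, was the 1 gene of this list that rose with TAN, at 33.5 and 34.7 FPKM with TAN, against 19.4 and 18.7 FPKM with vehicle (log2 change 0.81 ± 0.078, adjusted p = 0.00117). It fell with TAMo by 0.22 (adjusted p = 0.0322), a call lost without TAN replicate 1 (0.0534), TAN replicate 2 (0.0536), TAMo replicate 2 (0.139), vehicle replicate 1 (0.135) or vehicle replicate 2 (0.0737), with no filter (0.0925), with no variance trend (0.055), in the fit of the 2 groups alone (0.0546) and with rescaling to one sum (0.794) or to one sum without mitochondrial genes (0.174). Tnfrsf13c, the BAFF receptor gene, and Relt were lower in both co-cultures, with -0.47 ± 0.13 and -0.30 ± 0.072 for TAN and -1.66 ± 0.13 and -0.93 ± 0.072 for TAMo, and both TAN calls were lost without any 1 of the TAN and vehicle libraries (adjusted p up to 0.198 and 0.151). Unfiltered low values (0.134 and 0.1) or a fit with no variance trend (0.0608 and 0.0613) also lost both. That of Tnfrsf13c was also lost with a pseudocount of 0.1 (0.097) or 0.5 (0.0588). Without TAN replicate 1, TAN replicate 2 or vehicle replicate 1, with no filter or with no variance trend, 1 gene of the list was thus called for TAN against vehicle. Fas measured 7.53 and 7.46 FPKM with TAN and missed the threshold (adjusted p = 0.0508), though it passed without vehicle replicate 2 (0.0113), with the replicate block (0.046), with a mean of at least 5 FPKM (0.0451) and with rescaling to one sum without mitochondrial genes (0.0496). Tnfrsf12a, the TWEAK receptor gene, missed it in both comparisons (0.44 ± 0.16 for TAN and -0.35 ± 0.16 for TAMo); it passed for TAN without TAMo replicate 1 (0.019) or TAMo replicate 2 (0.0183) or in the fit of the 2 groups alone (0.0181) and for TAMo without TAMo replicate 1 (0.00207).

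Downstream of the receptors, most of the listed signalling genes were higher with TAMo than with vehicle. All 33 listed signalling genes were tested, and with TAMo 24 were higher, 7 lower and 2 not called, beside 86.5% of all tested genes called, with a median log2 change of 0.66, beside 0.057 over all genes. Tnfaip3, which encodes the inhibitory ubiquitin-editing enzyme A20, measured 403 and 401 FPKM with TAMo, against 37.0 and 36.2 FPKM with vehicle. The genes Nfkbia, Nfkbie, Tnip1 and Cyld were higher with TAMo by 2.18 ± 0.035, 1.65 ± 0.046, 2.17 ± 0.033 and 2.04 ± 0.043. Like A20 their products are known to restrain NF-kB signalling, as is that of Otulin, a gene named after its values were seen, which measured 141.6 and 132.5 FPKM with TAMo, against 223 and 209 FPKM with vehicle, and fell by 0.65 (adjusted p = 3.61e-06). Traf1, an adaptor of TNFR2, 4-1BB and CD30 that is itself an NF-kB target, measured 556 and 546 FPKM with TAMo, against 147 and 148 FPKM with vehicle. Traf5, an adaptor of OX40 and CD27, measured 6.12 and 5.86 FPKM with TAMo, against 20.4 and 21.5 FPKM with vehicle, and so moved in the direction of Tnfrsf4 and against Cd27. Traf2 fell by 0.47 and Traf3 rose by 0.64 on the log2 scale, while Traf6 (1.13 ± 0.038), Birc2 (1.02 ± 0.050), Map3k7 (1.34 ± 0.040), Ikbkg (1.33 ± 0.044), Nfkb2 (0.94 ± 0.038) and Rel (0.90 ± 0.041) rose and Tab1 fell (-1.40 ± 0.046).

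With TAN 13 of the 33 were lower, 2 higher and 18 not called, beside 20.3% of all tested genes called, the median was -0.12 beside -0.0050 over all genes, and no change reached 1 in size. Nfkbie fell by 0.36 (adjusted p = 0.00332), Nfkbia by 0.27 (0.00383) and Nfkb2 by 0.27 (0.00479) in the TAN libraries. Tnfaip3 (-0.18 ± 0.038) and Tab1 (-0.22 ± 0.046) were lower and Ikbkg (0.17 ± 0.044) higher. Without TAN replicate 1 the calls of these 3 gave adjusted p of 0.0922, 0.0743 and 0.114, and without vehicle replicate 2 of 0.0729, 0.103 and 0.155. Tab1 and Ikbkg were also lost without TAN replicate 2 (0.109 and 0.164), Tnfaip3 and Ikbkg without vehicle replicate 1 (0.11 and 0.0962), and Ikbkg without TAMo replicate 1 (0.0541) or TAMo replicate 2 (0.0538) with the replicate block (0.0545) and in the fit of the 2 groups alone (0.0671). Traf1, Traf2, Traf3 and Traf5 did not pass (0.071 ± 0.024, -0.14 ± 0.042, 0.033 ± 0.048 and -0.16 ± 0.056), though Traf1 did without TAMo replicate 1 (0.0456) or TAMo replicate 2 (0.0454). Over the list, 5 genes were called without TAN replicate 1 or vehicle replicate 1 and 7 without TAN replicate 2 or vehicle replicate 2, all of them lower. With no filter on low values 9 were called, all lower, with Tnfaip3 (0.0593) and Ikbkg (0.0533) among those lost, and with no variance trend Tnfaip3 was lost (0.0585).

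**Figure D5:**
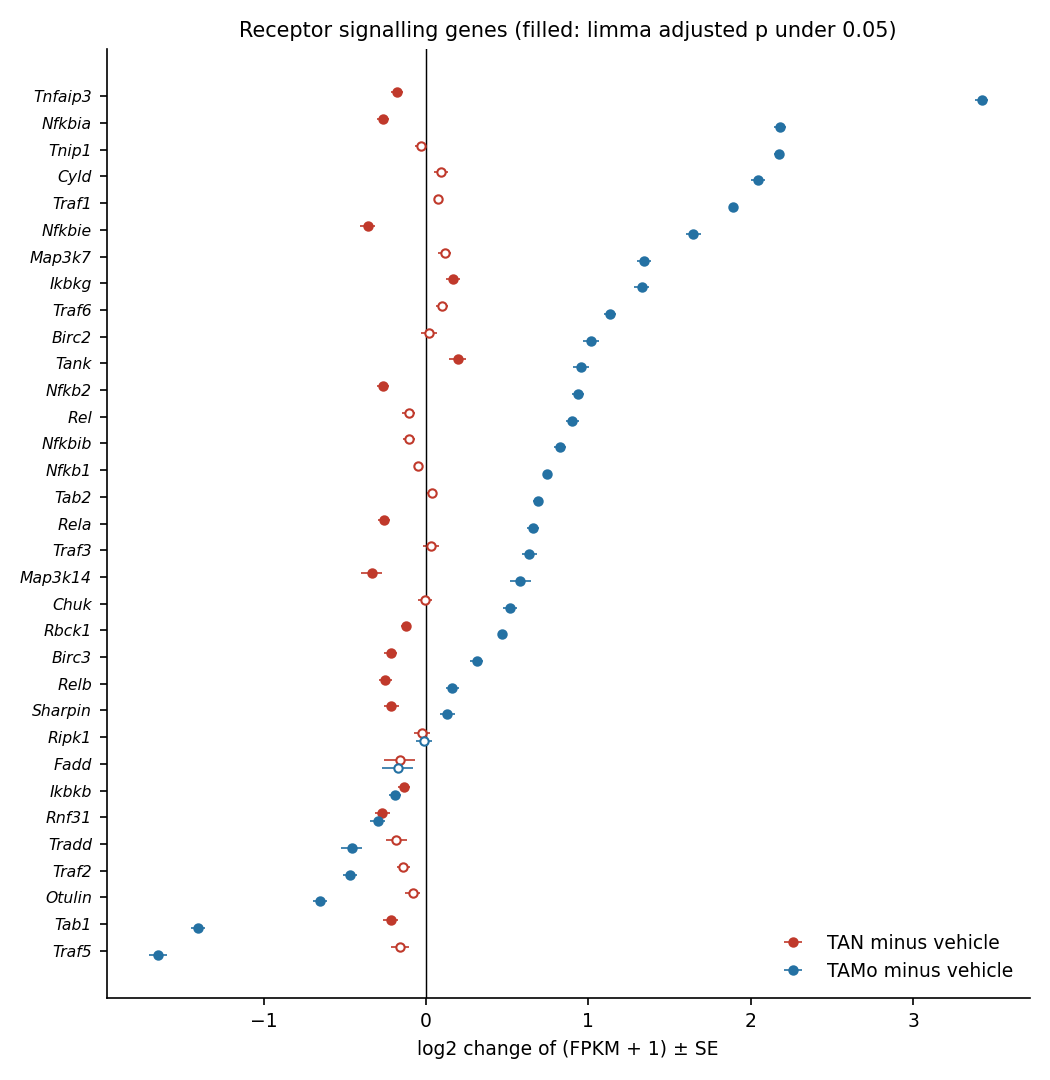
Log2 change of (FPKM + 1) with its standard error for the 33 signalling genes, ordered by their change with TAMo; red is TAN minus vehicle, blue TAMo minus vehicle, and filled points passed the limma test at an adjusted p under 0.05. The TAMo values run from -1.65 for Traf5 to 3.42 for Tnfaip3, and the TAN values stay within 0.36 of 0.

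Shedding genes differed between the co-cultures too. The metalloproteases ADAM17 and ADAM10 cut several of these receptors from the cell surface, and Rhbdf1 and Rhbdf2 encode iRhom proteins that ADAM17 needs to mature. With TAMo Adam17 (0.56 ± 0.040) and Adam10 (0.18 ± 0.033) rose and Rhbdf1 fell (-1.47 ± 0.094). Rhbdf2 also rose and measured 18.6 and 17.7 FPKM with TAMo, against 5.88 and 5.68 FPKM with vehicle. With TAN none of the 4 tested genes passed by limma, and 1 had an unadjusted p under 0.05. Their log2 changes lay between -0.095 and 0.15, with adjusted p of 0.0995 and above. Of all tested genes, 20.3% were called with TAN and 86.5% with TAMo. Timp3, an inhibitor of ADAM17, stayed at or under 0.0527 FPKM.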

How the data were processed

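RNA of OT-I CD8+ T cells was sequenced in 6 libraries, 2 each of TAN co-culture, TAMo co-culture and vehicle; groups and replicate numbers come from the labels, which name no batch. The deposited values are FPKM per gene, computed by the authors from counted reads. The build mm10 and the tools featureCounts 1.5.0-p3, HISAT2 2.0.5 and CASAVA are named per the submitters' processing notes, which give no annotation, strand setting or gene length. The 25638 symbols were matched to GENCODE M21 (GRCm38) for 25295 genes. Depth was taken as the smallest total at which at least 95% of low values (under 25 reads) in genes with 1 transcript were whole within 0.1; 98.1% to 99.2% were, and counting error alone is covered by it.

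The 10727 genes that reached 1 FPKM in 2 or more libraries were tested as log2(FPKM + 1), which understates changes of low genes. One limma 3.58.1 model (R 4.3.3; lmFit, contrasts.fit, eBayes with trend; 3 residual and 4.07 prior degrees of freedom) over all 6 libraries gave 3 two-sided comparisons with Benjamini-Hochberg adjustment over all genes, called at 0.05. It was also run on simulated data in which only the TAN group was changed. That setting is unlike these data, where 86.5% of tested genes were called with TAMo. A value after ± is a standard error, and a fold is a ratio of mean FPKM with nothing added. In the limma fit for TAN against vehicle 2180 genes were called. Replicates held no identical non-zero values (Pearson correlation across genes 0.9981, 0.9961 and 0.9982 for TAN, TAMo and vehicle). The receptors, lists and tests were chosen with earlier results of these data known. Named were all 9 receptors, tested ligand, receptor and shedding genes, TRAF genes, signalling genes with a log2 change of 1 or more in size in any comparison, genes within 50 kb and the 2 nearest profiles. No count test was used, because the deposited values are not counts. The alternatives changed pseudocount, filter, scaling, variance trend, samples and block.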

Additional observations from a re-analysis of the deposited data

How the results depend on the processing

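The 9 receptor calls for TAMo against vehicle and for TAN against TAMo kept their direction and threshold under all 16 alternatives. For TAN against vehicle, 4 receptors were called by limma; 2 were called with no variance trend, and 2 to 4 when 1 library was left out, Tnfrsf8 and Tnfrsf1b among them each time. Over all genes in that comparison, 2180 were called, 1331 with no filter on low values, and 725 to 2574 when 1 library was left out; the lowest counts were 823 without TAN replicate 1, 730 without TAN replicate 2, 725 without vehicle replicate 1 and 829 without vehicle replicate 2. Of the 12 remaining TNF receptor genes tested, 11 passed for TAMo against vehicle and 12 for TAN against TAMo, beside 86.5% and 86.6% of all tested genes. With a mean of at least 5 FPKM, which left 6 of them to test, 6 passed in each. Rescaling libraries to one sum moved the median log2 change of all genes with TAMo against vehicle to 0.24, beside 0.057, and turned the sign for Ltb (0.031), Ripk1 (0.18) and Ikbkb (0.0066); for TAN against TAMo it turned Ikbkb (-0.14) and Rnf31 (-0.17). Fam213b turned to 0.26 for TAMo against vehicle without TAMo replicate 1 and stood at -0.37 without TAMo replicate 2. The cause was not tested beyond the construction of each setting. Same-numbered libraries of different groups showed little common deviation (r = 0.0567 for TAN and vehicle, 0.0245 for TAMo and vehicle and 0.00782 for TAN and TAMo, over 10727 genes), so the numbers were not taken as pairs. With the replicate block 4 receptors and 2140 genes were called for TAN against vehicle, and 9 receptors in each of the other comparisons. With 2 libraries a group, small changes such as those of Tnfrsf4 and Cd27 with TAN are at the limit of what this design resolves, and Tnfrsf8 with TAMo rests on about 60.2 and 105 reads.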
